A study of Mus musculus with 83 samples.

Results

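Pol II occupancy was followed over 8 nuclear genes that encode the folding and proteolysis machinery of the mitochondrial matrix and intermembrane space. They were picked by name from the 27752 genes of the count tables, not by a threshold on a measured value, and all 8 have a row in every table. Hspd1 and Hspe1 encode the chaperonin HSP60 and its co-chaperonin HSP10. Hspa9 encodes the matrix HSP70 mortalin, Grpel1 its nucleotide exchange factor, and Trap1 the mitochondrial HSP90. Lonp1 encodes the Lon protease, Clpx the ATPase that feeds substrates to the ClpP protease, and Htra2 a serine protease of the intermembrane space. These proteins are made in the cytosol and imported unfolded. The HSP70 machine pulls them in, the HSP60 barrel closed by HSP10 folds many of them, and the proteases clear those that fail. In mammals Hspd1 and Hspe1 lie head to head on a bidirectional promoter, and heat shock factor HSF1, which binds arrays of inverted nTTCn and nGAAn repeats, is known to act on it.

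Of 83 CUT&Tag samples from mouse embryonic stem cells (mESCs), the 24 Pol II libraries have gene counts. CUT&Tag tethers a transposase to an antibody, here against Pol II, so that adapters are inserted where the protein sits. C64 mESCs derive from the JM8.N4 line, and their TBP carries an auxin-inducible degron, so that indole-3-acetic acid (IAA) depletes the TATA-binding protein. The study also lists for C64 a HaloTag knock-in on the largest Pol II subunit and for all its lines a GFP-tagged histone H3 variant. B8 mESCs are C64 mESCs that also lack Tbpl1, which encodes TRF2, a paralog of TBP. Every group compared thus carries the TBP degron and these tags. The C64 groups of run 2 were heat shock with IAA (500 µM IAA for 6 h, then 30 min at 42 °C with IAA present), heat shock alone (30 min at 42 °C), IAA for 6 h, and control. Those of run 3 were retinoic acid (25 µM) with IAA (500 µM) for 16 h, retinoic acid alone for 16 h, IAA for 16 h, and control. The retinoic acid dose is that of the labels, and the study's methods give a lower one, so the dose is uncertain. The B8 groups were IAA (500 µM, 6 h) and control, each measured in runs 6 and 8. Each group had 2 libraries in a run. The labels call the controls untreated, and the study's figure legends name DMSO as their vehicle. Each line is 1 edited line, so clone and genotype cannot be told apart, and the p-values cover the spread between these libraries only. The study calls the libraries of a group biological replicates, and the labels do not say whether they came from separate cultures.

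The tables assign 900651 to 2523832 counts to genes in each B8 library and 3854622 to 5056322 in each C64 library, so values in B8 rest on fewer counts. Levels are given in CPM, counts divided by the library total after TMM scaling over all 24 libraries. Statements that groups overlap or lie apart describe the members alone, as the share over all genes was not counted. Because whole cultures were measured, a change in the share of cells that use a gene and a change in Pol II per cell cannot be told apart. The run 2 libraries are not numbered in the tables, and their column names form a pair of sets, called a and b here. Libraries of 1 group correlated at 0.884 to 0.984 in log2 CPM, the lowest value being that of the B8 controls of run 6, where library 2 also had 11.8% of its counts outside the genes shared by both kinds of table. The treatments were visible in marker loci. Hsph1, a cytosolic HSP110 chaperone, had 991 and 859 CPM in heat shock with IAA and 1744 and 1245 CPM in heat shock alone, against 60.6 and 75.1 CPM with IAA alone and 90.7 and 92.7 CPM in control. Stra8, a retinoic acid target, had 279 and 174 CPM in retinoic acid, against 14.4 and 18.9 CPM in control. Tbpl1 had 0 to 4.37 CPM over the 8 B8 libraries and 6.23 to 16.0 CPM over the 16 C64 libraries. Of 8 embryonic stem cell markers, 7 were above 0 in every group, but so were all 3 primitive endoderm and all 4 fibroblast markers. Being above 0 thus does not mark a cell type here. Of 4 neural markers, 3 were at 0. In C64 controls of run 2 the stem cell markers summed to 1283 to 1518 CPM, and to 84.7 to 94.9 CPM without Esrrb and Tfcp2l1. Primitive endoderm markers summed to 183 to 227 CPM there, and fibroblast markers to 51.6 to 56.2 CPM. Sox2 was at 0 in every library, but so were all 3435 genes of the C64 tables that lie wholly inside another annotated gene, as against 1.35% of the others.

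The sequence between the Hspd1 and Hspe1 starts is shown because it holds an array of heat shock repeats, which the windows of the other members with a sequence do not. RefSeq gives 2 starts for Hspd1, of which the inner one lies 216 bases from the Hspe1 start, pointing the other way. An array of 4 alternating heat shock repeats, the unit TTCNNGAA followed by NN and the same unit again, occupies 18 bases at chr1:55088059-55088076, 89 to 72 bases before the Hspe1 start and 127 bases before the inner Hspd1 start. It lies inside the Hspd1 span of the tables (chr1:55077835-55088243) and outside the 112 bases that this span shares with that of Hspe1 (chr1:55088132-55091307). Below, the Hspe1 window (chr1:55087898-55088197, plus strand) and the inner Hspd1 window (chr1:55087883-55088182, minus strand) run from 250 bases before to 50 bases after the start, taken from RefSeq on GRCm38.p6, with the repeats in capitals, after the stretch of 38 bases around the array read on the plus strand.
Array with flanks: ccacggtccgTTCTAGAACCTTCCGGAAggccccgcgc
Hspe1: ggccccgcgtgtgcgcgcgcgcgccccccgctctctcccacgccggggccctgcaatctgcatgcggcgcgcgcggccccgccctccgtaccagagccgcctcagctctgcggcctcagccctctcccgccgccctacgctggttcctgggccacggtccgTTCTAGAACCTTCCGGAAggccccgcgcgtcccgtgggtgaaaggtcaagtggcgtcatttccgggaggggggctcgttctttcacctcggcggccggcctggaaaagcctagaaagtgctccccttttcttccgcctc
Hspd1 (inner start): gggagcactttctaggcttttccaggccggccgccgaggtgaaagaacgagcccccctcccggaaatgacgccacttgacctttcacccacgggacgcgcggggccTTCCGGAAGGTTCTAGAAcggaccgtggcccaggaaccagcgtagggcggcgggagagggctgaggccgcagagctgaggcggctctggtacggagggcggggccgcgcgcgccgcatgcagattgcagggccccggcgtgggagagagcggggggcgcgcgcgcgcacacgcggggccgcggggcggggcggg
The same 18 bases thus stand upstream of the Hspe1 start and of the inner Hspd1 start, read on opposite strands.

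**Figure D1:**
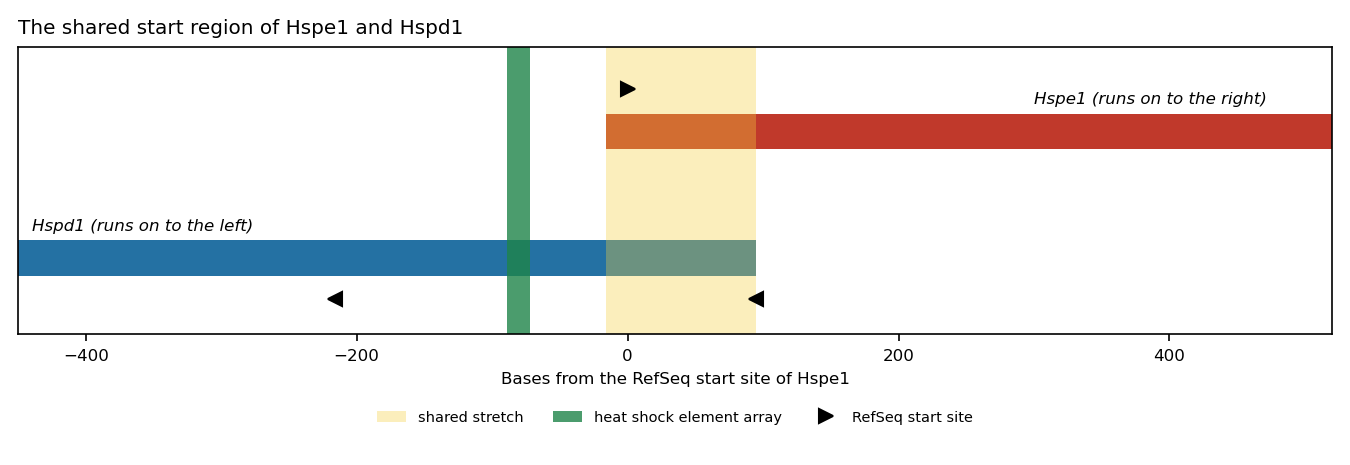
The start region of Hspe1 and Hspd1, drawn to scale in bases from the RefSeq start of Hspe1 (x axis). Bars are the gene spans of the count tables, arrowheads the RefSeq starts with their direction, the green band the heat shock element array of 18 bases and the yellow band the 112 bases that both spans share, where fragments are counted for neither gene.

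The array is rare among promoters. The windows counted below as holding 3 or 4 repeats include those of Hspe1 and of the inner Hspd1 start, which share the same array. Of 32851 RefSeq windows of 300 bases, searched on both strands, 5 (0.0152%) held all 4 repeats in this phase and 198 (0.603%) held 3 repeats in a row in either phase (TTCNNGAA, NN and TTC, or the reverse complement). A single pair of repeats is common: TTCNNGAA was present in 8.52% and GAANNTTC in 7.86% of windows, and these letters overlap within longer arrays. Of the 8 members, 6 have a window in the table (Hspd1, Hspe1, Trap1, Lonp1, Clpx and Grpel1), and Hspd1 and Hspe1 were those with the repeats. Of the 5 inducible cytosolic chaperones with a window, Hsph1 held 3 repeats, and of the 17 other mitochondrial chaperones and proteases with a window 0 did. No member window held TATAAA (13.6% of all windows), the palindromic NRF1 motif (0.971%) or the ATF4 and C/EBP composite motif TGATGNAA (3.97%), and CCAAT, found in 37.4% of windows, was present in those of Clpx, Grpel1 and the outer Hspd1 start. A match is a description of letters and does not show binding. Of the gene lists deposited by the authors for TATA-containing and TATA-less promoters, 0 of the 8 members were in the TATA-containing one and 7 in the TATA-less one, with Trap1 in neither.

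The way fragments were counted bears on the members directly. Fragments that touch more than 1 gene are not counted for either, so each member is measured only where no other gene lies. All positions are those of GRCm38. The 112 bases shared by Hspd1 (minus strand) and Hspe1 (plus strand) lie at the start of both genes, so fragments over them count for neither. Htra2 (chr6:83051266-83055273, minus strand) shares 2050 of its 4008 bases with Loxl3 and Aup1, including the whole of its first 500 bases, and only 1958 bases are its own. The other 5 members share 0 to 4.52% of their length and none of their first 500 bases with another gene. They are Hspa9 (chr18:34937414-34954357, minus strand), Trap1 (chr16:4039971-4077827, minus strand), Lonp1 (chr17:56614297-56626887, minus strand), Clpx (chr9:65294260-65330658, plus strand) and Grpel1 (chr5:36464998-36474080, plus strand), whose start lies 145 bases from that of 2210406O10Rik on the other strand.

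Per kilobase of gene, the members differed widely in Pol II occupancy. In C64 controls of run 2, Hspd1 had 20.1 ± 3.93 and Lonp1 17.9 ± 1.27 CPM per kb (mean ± SD, n = 2, here and for the other levels of this paragraph), and their ranges overlapped. Hspa9 and Hspe1 followed at 7.98 ± 0.281 and 7.73 ± 1.07 CPM per kb and did not differ beyond their spread. Trap1 (3.57 ± 0.191) and Grpel1 (3.11 ± 0.689) came next, again within their spread, then Htra2 at 2.06 ± 0.106, and Clpx was lowest at 1.39 ± 0.0886 CPM per kb. The Htra2 value divides by the whole gene although only part of it is counted. Per kb of the bases that no other gene shares, Htra2 had 4.21 ± 0.216, above Trap1 at 3.61 ± 0.193 and Grpel1 at 3.26 ± 0.722, so its place in the order depends on the length used. Lonp1 and Hspd1 were also the upper pair in C64 controls of run 3, at 13.6 ± 5.00 and 9.73 ± 5.48 CPM per kb.

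Pol II rose over the chaperonin pair when IAA-treated cells were heat-shocked. Hspe1 had 60.7 and 40.9 CPM in heat shock with IAA (sets a and b), against 15.0 and 20.8 CPM with IAA alone. Hspd1 had 359 and 287 CPM in heat shock with IAA, against 152 and 112 CPM with IAA alone. Both heat-shocked libraries lay above both others for each gene. The log2 fold changes were 1.51 (SE 0.28, 2.85-fold, adjusted p = 0.0194) for Hspe1 and 1.30 (SE 0.27, 2.46-fold, adjusted p = 0.0321) for Hspd1. These 2 of 8 members were called, both higher, where 1.40% of the 16486 genes tested were called. With the library set as a block, the same pair was called (adjusted p = 7.81e-07 and 8.42e-06) beside 9.76% of genes. The median log2 fold change of the members was 0.13, beside 0.02 over all genes tested. Leaving out an IAA library ended calls: without set a of IAA neither gene passed (adjusted p = 0.109 for Hspe1 and 0.165 for Hspd1, at log2 fold changes of 1.31 and 1.55), and without set b Hspd1 did not (adjusted p = 0.582). In a joint fit of all 4 groups of run 2, Hspe1 did not pass either (log2 fold change 1.53, adjusted p = 0.0758, in a range of 7.81e-07 to 0.109 over 11 alternatives).

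Without IAA the pair also had more Pol II in the heat-shocked libraries, but the differences did not pass the test. Hspe1 had 73.6 and 31.9 CPM in heat shock, against 26.9 and 22.1 CPM in control. Hspd1 had 366 and 272 CPM in heat shock, against 239 and 181 CPM in control. The heat-shocked libraries lay above the controls for both genes, though set b of Hspe1 was only 1.44 times its own control and set a 2.73 times. The log2 fold change of Hspe1 was 1.15 (SE 0.33, adjusted p = 0.0746) and that of Hspd1 0.64 (SE 0.25, adjusted p = 0.190). So 0 of 8 members passed edgeR's quasi-likelihood test, beside 3.02% of 16332 genes, while 3 members had an unadjusted p under 0.05, beside 2616 genes. By the likelihood-ratio test of edgeR 1 was called (Hspe1, adjusted p = 0.0290), beside 792 genes, and by DESeq2 0, beside 559. The study's own printed selection of upregulated heat shock genes, fitted with edgeR's glmFit, includes Hspe1. With the library set as a block, Hspe1 rose (log2 fold change 1.04, SE 0.25, adjusted p = 0.00177) and Hspd1 had an adjusted p of 0.0627, beside 8.41% of genes called. Without set b of heat shock, Hspe1, Hspd1 and Trap1 were called (log2 fold changes of 1.58, 0.80 and -0.75, adjusted p = 2.04e-07, 0.00227 and 0.0142), beside 2589 genes. Without set a of heat shock the log2 fold change of Hspe1 was 0.39 (adjusted p = 0.523), so that its size rests largely on that library. Over 11 alternatives the adjusted p ran from 2.04e-07 to 0.523 for Hspe1 and from 0.00227 to 0.854 for Hspd1.

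**Figure D2:**
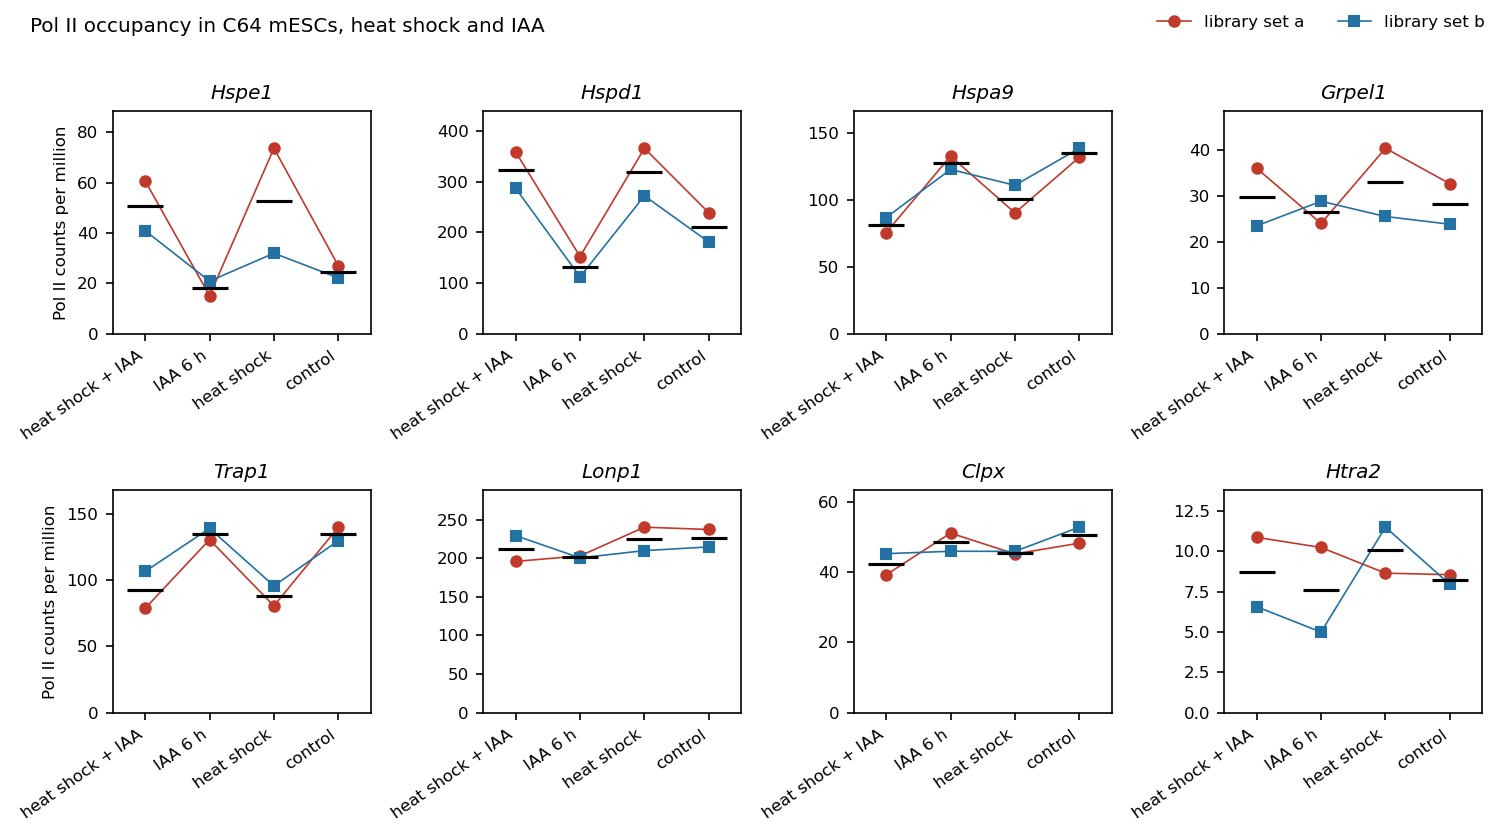
Pol II occupancy of the 8 genes in C64 mESCs of run 2 (y axis, TMM-scaled CPM, from 0). Points are single libraries, lines join libraries of the same set and carry no order, and black bars are means of 2; for Hspe1 and Hspd1 each heat-shocked library lies above the libraries of its comparison group, while Hspa9 and Trap1 lie below.

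Hspa9 and Trap1 had less Pol II in the heat-shocked libraries, short of the threshold. Hspa9 had 75.6 and 86.8 CPM in heat shock with IAA, against 133 and 123 CPM with IAA alone. Heat shock without IAA gave 90.3 and 111 CPM, against 132 and 139 CPM in control. Both comparisons were free of overlap, yet neither passed the test (log2 fold changes of -0.65, SE 0.23, adjusted p = 0.172, and -0.40, SE 0.22, adjusted p = 0.406). In heat shock against control, Clpx (log2 fold change -0.12) and Htra2 (0.31) were free of overlap too. The share of all genes without overlap was not counted. Trap1 had 78.8 and 107 CPM in heat shock with IAA, against 131 and 139 CPM with IAA alone, and 80.7 and 95.8 CPM in heat shock, against 140 and 130 CPM in control. Its log2 fold changes were -0.53 (SE 0.24, adjusted p = 0.288) and -0.59 (SE 0.22, adjusted p = 0.182). Without set b of heat shock with IAA, Hspa9 and Trap1 were called against IAA alone (log2 fold changes of -0.76 and -0.78, adjusted p = 0.0148 and 0.0127), beside 2786 genes, while over 11 alternatives their adjusted p reached 0.838 and 0.899. For Grpel1, the exchange factor of Hspa9, the log2 fold changes were 0.18 (SE 0.27) with IAA and 0.26 (SE 0.29) without.

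For the proteases, heat-shocked and other libraries lay close together. Lonp1 had 196 and 229 CPM in heat shock with IAA, against 203 and 201 CPM with IAA alone, and 240 and 210 CPM in heat shock, against 237 and 215 CPM in control. The 95% intervals of its log2 fold change were -0.40 to 0.57 with IAA and -0.41 to 0.47 without, so that changes up to about these sizes are not excluded. Clpx ranged from 39.3 to 46.0 CPM in the 4 heat-shocked libraries and from 46.0 to 52.9 CPM in the 4 others. Htra2 rested on few counts and ranged from 6.57 to 11.5 CPM in the heat-shocked libraries and from 4.99 to 10.2 CPM in the others, with SEs of 0.43 and 0.39 on the log2 scale.

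The balance within the pair was read from its counts. Hspe1 took 14.5% (95% Wilson interval 13.1 to 16.0%) and 12.5% (10.9 to 14.2%) of the counts of both genes in heat shock with IAA, against 8.99% (7.20 to 11.2%) and 15.7% (13.0 to 18.8%) with IAA alone. In heat shock it took 16.7% (15.2 to 18.4%) and 10.5% (9.02 to 12.2%), against 10.1% (8.59 to 11.9%) and 10.9% (9.08 to 13.1%) in control. In set a the intervals of heat-shocked and other libraries did not overlap, and in set b they did. These intervals cover counting error only, since CUT&Tag reads without molecular identifiers are not independent molecules.

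Whether TBP depletion changes the response was asked by comparing heat shock with and without IAA. The study names incomplete degradation as a limit of its system, so the comparison is between less and more TBP. Heat shock with IAA against heat shock alone called 0 of 8 members with edgeR, with 0 at an unadjusted p under 0.05, 0 by the likelihood-ratio test and 0 by DESeq2, beside 0% of 16628 genes (160 at an unadjusted p under 0.05, 0 by the other tests) and 0.650% with the library set as a block. Hspe1 differed by -0.04 (SE 0.40) and Hspd1 by 0.03 (SE 0.27) on the log2 scale, with 95% intervals of -0.84 to 0.75 and -0.50 to 0.56. Those intervals leave room for a change of up to about these sizes in either direction. The Hspe1 value moved with single libraries, to 0.71 without set a of heat shock and to -0.52 without set b, and neither was called. For scale, of the inducible cytosolic chaperones 5 of 7 were higher with heat shock and IAA against IAA (0 lower, median log2 fold change 1.95) and 6 of 7 with heat shock against control (0 lower, median 1.97), among them Hspa1b at 3.14 (SE 0.35) and 2.82 (SE 0.31). That list also holds Hspa8, a constitutive HSP70 gene. Hspa8 had 615 and 683 CPM in heat shock, against 628 and 502 CPM in control. With IAA it had 324 and 389 CPM in heat shock, against 170 and 168 CPM without heat shock.

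The heat shock effects with and without IAA were then compared. That of Hspd1 was higher with IAA than without by 0.69 on the log2 scale (SE 0.35), which did not pass the test (adjusted p = 1), and that of Hspe1 by 0.40 (SE 0.52). Of the members 0 of 8 were called in this interaction (0 at an unadjusted p under 0.05, 0 by the likelihood-ratio test or DESeq2), beside 0% of 16961 genes (121 at an unadjusted p under 0.05, 0 by the other tests). These comparisons share libraries and are not independent of each other.

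With IAA for 6 h, Hspd1 stood lower in both sets by nearly the same ratio. Hspd1 had 152 and 112 CPM with IAA, against 239 and 181 CPM in control, ratios of 0.638 in set a and 0.621 in set b. The log2 fold change was -0.65 (SE 0.19, unadjusted p = 0.00559, adjusted p = 1). With the library set as a block it fell (log2 fold change -0.65, SE 0.10, adjusted p = 2.78e-08). Thus 0 of 8 members passed without the block (1 at an unadjusted p under 0.05, 0 by the likelihood-ratio test, 0 by DESeq2), beside 0.0433% of 16157 genes (354 at an unadjusted p under 0.05, 29 by the likelihood-ratio test, 27 by DESeq2). With the block 1 of 8 passed, beside 1.19%. The adjusted p of Hspd1 ran from 2.78e-08 to 1 over 11 alternatives. Hspe1 had 15.0 and 20.8 CPM with IAA, against 26.9 and 22.1 CPM in control, with no overlap but ratios of 0.558 and 0.941 in the sets, and was not called in either fit (log2 fold change -0.44, SE 0.24, adjusted p = 0.522 with the block). The log2 fold changes of the other 6 members ran between -0.15 and 0.01. TMM removes a change shared by all genes, and the deposited spike-in numbers of run 2, which could not be tied to single columns, differed between replicates: IAA gave 201 and 42.9 genome reads per spike-in read, against 91.8 and 76.0 in control, a shift of 1.13 and -0.83 on the log2 scale.

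IAA for 16 h gave no called member. Hspd1 had 118 and 58.6 CPM in replicates 1 and 2 with IAA, against 142 and 60.9 CPM in control. Hspe1 had 12.9 and 9.84 CPM with IAA, against 16.5 and 8.67 CPM in control. The groups overlapped for all 8 members, and 0 of 8 were called with edgeR, with 0 at an unadjusted p under 0.05 and 0 by the likelihood-ratio test and by DESeq2, beside 0% of 16349 genes (319 at an unadjusted p under 0.05, 2 by the likelihood-ratio test, 4 by DESeq2). With the replicate number as a block 0 of 8 were called, beside 2.16% of genes. Lonp1 came nearest there, at 283 and 144 CPM with IAA, against 216 and 127 CPM in control (log2 fold change 0.31, SE 0.11, adjusted p = 0.120 with the block, up to 1 over 13 alternatives).

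In run 3 the levels of Hspd1, Hspe1, Hspa9 and Lonp1 split by replicate number in every group. Over the 4 groups, Hspd1 ran from 77.1 to 142 CPM in replicate 1 and from 53.2 to 60.9 CPM in replicate 2. Lonp1 ran from 197 to 283 CPM in replicate 1 and from 93.4 to 144 CPM in replicate 2, and Hspa9 from 147 to 185 CPM and from 78.0 to 105 CPM. Replicate 1 exceeded replicate 2 in each group by 1.45 to 2.32 times for Hspd1, 1.70 to 2.11 times for Lonp1, 1.58 to 1.92 times for Hspa9 and 1.31 to 2.03 times for Hspe1. Trap1, Grpel1, Clpx and Htra2 showed ratios of 0.632 to 1.34. The counts of genome reads per spike-in read in the deposited normalization table also split by number, at 172 to 197 in replicate 1 and 7.32 to 11.8 in replicate 2, and their part in the split was not tested.

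**Figure D3:**
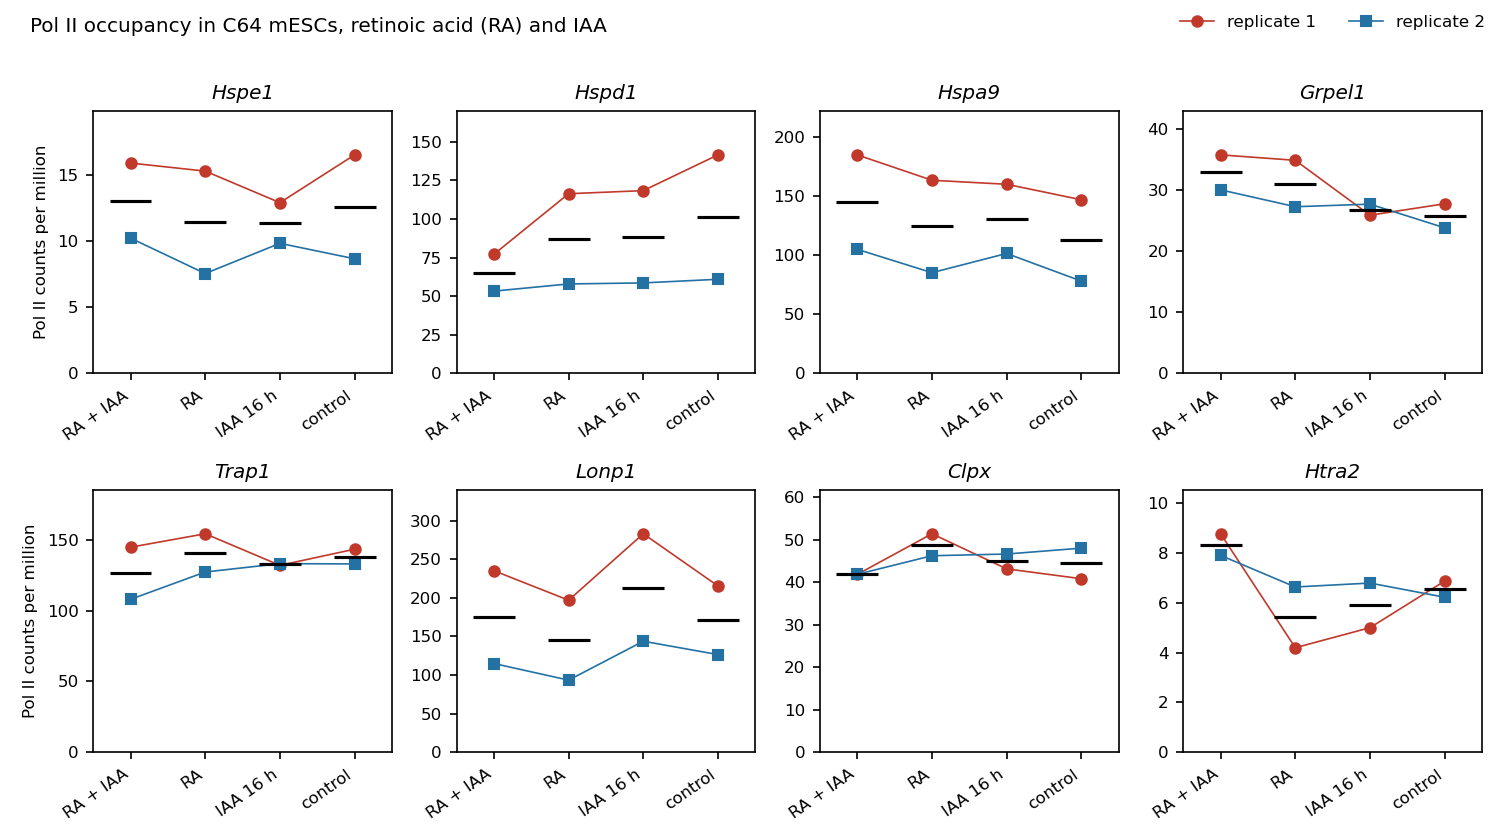
Pol II occupancy of the 8 genes in C64 mESCs of run 3 (y axis, TMM-scaled CPM, from 0). Points are single libraries, lines join libraries of the same replicate number and carry no order, and black bars are means of 2; for Hspd1, Hspe1, Hspa9 and Lonp1 replicate 1 lies above replicate 2 in every group.

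Retinoic acid for 16 h, which starts differentiation, gave no called member either. Hspd1 had 116 and 57.9 CPM in retinoic acid, against 142 and 60.9 CPM in control, and Hspe1 15.3 and 7.55 CPM, against 16.5 and 8.67 CPM. The log2 fold changes of the 8 members ran between -0.26 (Htra2, SE 0.46) and 0.28 (Grpel1, SE 0.24). With edgeR 0 of 8 were called (0 at an unadjusted p under 0.05, 0 by the likelihood-ratio test, 0 by DESeq2), beside 0.0183% of 16350 genes (1008 at an unadjusted p under 0.05, 132 by the likelihood-ratio test, 87 by DESeq2). With the replicate number as a block 0 of 8 were called as well, beside 11.4% of genes. The summed level of the 8 embryonic stem cell markers was 501 to 744 CPM in retinoic acid, against 1138 to 1714 CPM in control. Esrrb and Tfcp2l1 carried 89.8 to 93.9% of these sums in retinoic acid, against 94.1 to 95.7% in control, so the sums are in effect those of 2 genes, and the other 6 summed to 45.5 to 51.0 CPM, against 67.0 to 74.2 CPM.

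Adding IAA to retinoic acid gave 0 called members against retinoic acid alone (0 at an unadjusted p under 0.05, 0 by the likelihood-ratio test or DESeq2), beside 0% of 16439 genes (104 at an unadjusted p under 0.05, 0 by the other tests) and 1.04% with the replicate block. Hspd1 had 77.1 and 53.2 CPM in retinoic acid with IAA, against 116 and 57.9 CPM in retinoic acid (log2 fold change -0.40, SE 0.35). Hspe1 had 15.9 and 10.2 CPM, against 15.3 and 7.55 CPM, so the pair did not share a direction here. Htra2 had 8.78 and 7.91 CPM in retinoic acid with IAA, against 4.20 and 6.64 CPM in retinoic acid (log2 fold change 0.63, SE 0.48). Against IAA alone, retinoic acid with IAA called 0 members (0 at an unadjusted p under 0.05, 0 by the likelihood-ratio test or DESeq2), beside 0% of 16395 genes (629 at an unadjusted p under 0.05, 72 by the likelihood-ratio test, 67 by DESeq2) and 1.82% with the replicate block. The log2 fold changes there ran between -0.43 (Hspd1, SE 0.34) and 0.51 (Htra2, SE 0.45). The difference between the retinoic acid effects with and without IAA called 0 of 8 members (0 at an unadjusted p under 0.05, 0 by the likelihood-ratio test or DESeq2), beside 0% of 17032 genes (118 at an unadjusted p under 0.05, 0 by the other tests), and was widest for Htra2 at 0.78 (SE 0.58).

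In B8 mESCs, Hspd1 stood lower with IAA in run 8 and overlapped the controls in run 6. Hspd1 had 102 and 101 CPM with IAA in run 8, against 151 and 138 CPM in control. In run 6 it had 96.4 and 79.7 CPM with IAA, against 106 and 74.7 CPM in control. With run as a covariate the log2 fold change was -0.32 (SE 0.14, adjusted p = 0.207). Fitted alone, run 8 gave -0.48 (adjusted p = 0.00101), beside 2753 of 13535 genes called, and run 6 gave no called member. Of the 7 members that passed the filter on low counts 0 were called with edgeR, with 1 at an unadjusted p under 0.05 and 0 by the likelihood-ratio test or DESeq2, beside 5.35% of 13881 genes (2790 at an unadjusted p under 0.05, 1172 by the likelihood-ratio test, 824 by DESeq2). Without control library 2 of run 6, the library that stood apart, Hspd1 was called (log2 fold change -0.43, adjusted p = 0.00561), beside 2086 genes. Its adjusted p ran from 0.00101 to 0.873 over 18 alternatives. Htra2 did not pass the filter, having 1.97 to 10.7 CPM over the 8 libraries.

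No other member of B8 was called with both runs in the fit. Hspe1 had 13.5 and 13.8 CPM with IAA, against 14.4 and 16.5 CPM in control, in run 8, and 10.8 and 4.93 CPM, against 9.83 and 7.87 CPM, in run 6 (log2 fold change -0.18, SE 0.29). Lonp1 had 181 and 183 CPM with IAA, against 248 and 203 CPM in control, in run 8. Fitted alone, that run called Lonp1 beside 2753 of 13535 genes (log2 fold change -0.27, adjusted p = 0.0302, up to 0.879 over 18 alternatives). The log2 fold changes of Hspa9, Trap1, Clpx and Grpel1 lay between -0.07 and 0.14 with both runs, but the runs differed. Clpx had 57.3 and 57.5 CPM with IAA, against 49.1 and 35.4 CPM in control, in run 6, and 45.9 and 43.8 CPM with IAA, against 63.9 and 56.8 CPM in control, in run 8. Its log2 fold change was 0.35 in run 6 alone (adjusted p = 0.606) and -0.39 in run 8 alone (adjusted p = 0.0892). Those of Hspa9 and Trap1 were 0.26 and 0.37 in run 6 alone and -0.05 and -0.06 in run 8 alone, with IAA libraries above the controls in run 6 for both genes, and the difference between runs was not tested. The IAA effect at 6 h was compared between the lines, B8 minus C64: the difference was 0.34 for Hspd1 (SE 0.24), 0.27 for Hspe1 (SE 0.38) and between -0.03 and 0.35 for the other 6. Of the members 0 of 8 were called (0 at an unadjusted p under 0.05, 0 by the likelihood-ratio test or DESeq2), beside 0.0913% of 15338 genes (1074 at an unadjusted p under 0.05, 51 by the likelihood-ratio test, 57 by DESeq2).

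**Figure D4:**
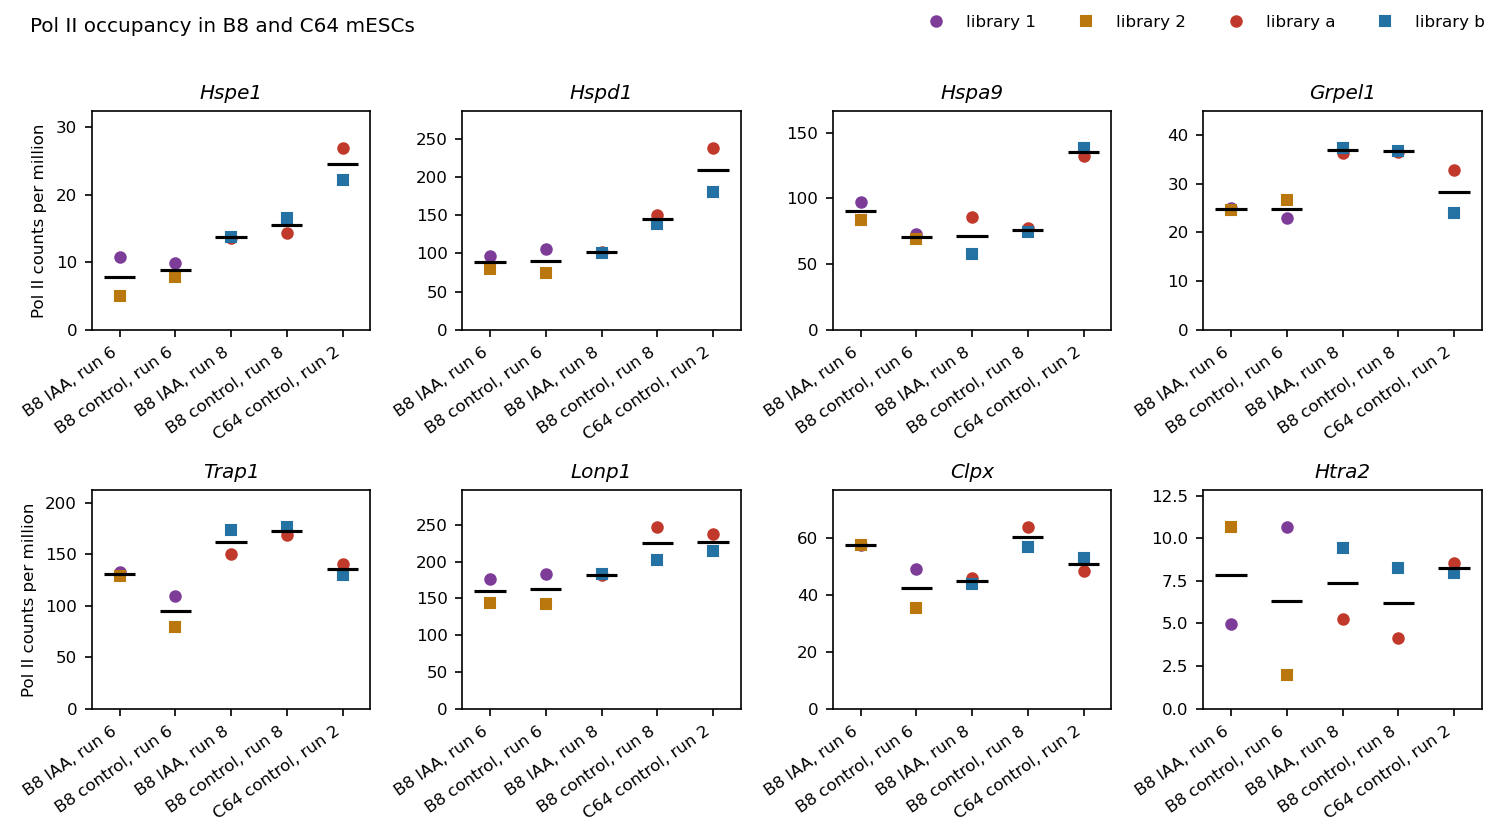
Pol II occupancy of the 8 genes in B8 mESCs of runs 6 and 8 with C64 controls of run 2 (y axis, TMM-scaled CPM, from 0). Points are single libraries and black bars means of 2; Hspd1, Hspe1 and Hspa9 lie lower in the 4 B8 controls than in the 2 C64 controls, which were also measured in another run.

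Hspa9, Hspe1 and Hspd1 were lower in B8 controls than in C64 controls in every library, although line and run cannot be told apart here. Hspa9 had 72.9, 68.8, 77.3 and 74.2 CPM in B8 controls, against 132 and 139 CPM in C64 controls of run 2 (log2 fold change -0.83, SE 0.19, unadjusted p = 0.00121, adjusted p = 0.759). Hspe1 had 9.83, 7.87, 14.4 and 16.5 CPM in B8 controls, against 26.9 and 22.1 CPM in C64 controls (log2 fold change -0.92, SE 0.30, adjusted p = 0.826). Hspd1 had 106, 74.7, 151 and 138 CPM in B8 controls, against 239 and 181 CPM in C64 controls (log2 fold change -0.79, SE 0.27, adjusted p = 0.826). With edgeR 0 of the 7 members tested were called, with 3 at an unadjusted p under 0.05 and 0 by the likelihood-ratio test and DESeq2, beside 0% of 14622 genes (863 at an unadjusted p under 0.05, 21 by the likelihood-ratio test, 16 by DESeq2). Taken alone against C64, run 6 called Hspd1 (log2 fold change -1.11, adjusted p = 0.0393), beside 535 of 15250 genes. Run 8 called Hspa9 and Hspd1 (-0.84 and -0.54, adjusted p = 0.00394 and 0.0458), beside 785 of 14989. Over 13 alternatives the adjusted p of both reached 1. The C64 controls of run 3 had 142 and 60.9 CPM of Hspd1, 16.5 and 8.67 CPM of Hspe1 and 147 and 78.0 CPM of Hspa9, so against that run the first pair of genes overlapped with B8. Lower fitted values were also common among other chaperones in B8 controls against C64 controls of run 2, none of them called: 8 of 8 TRiC genes (median log2 fold change -0.70), 11 of 12 endoplasmic reticulum chaperones (median -0.37) and 6 of 6 inducible cytosolic chaperones (median -0.45), beside a median of -0.18 for the 7 members and 0.02 for all genes. Of 18 further mitochondrial chaperones and proteases tested, however, 10 had log2 fold changes above 0 (median 0.05). Of 11 mitochondrial import genes tested, 2 did (median -0.21).

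**Figure D5:**
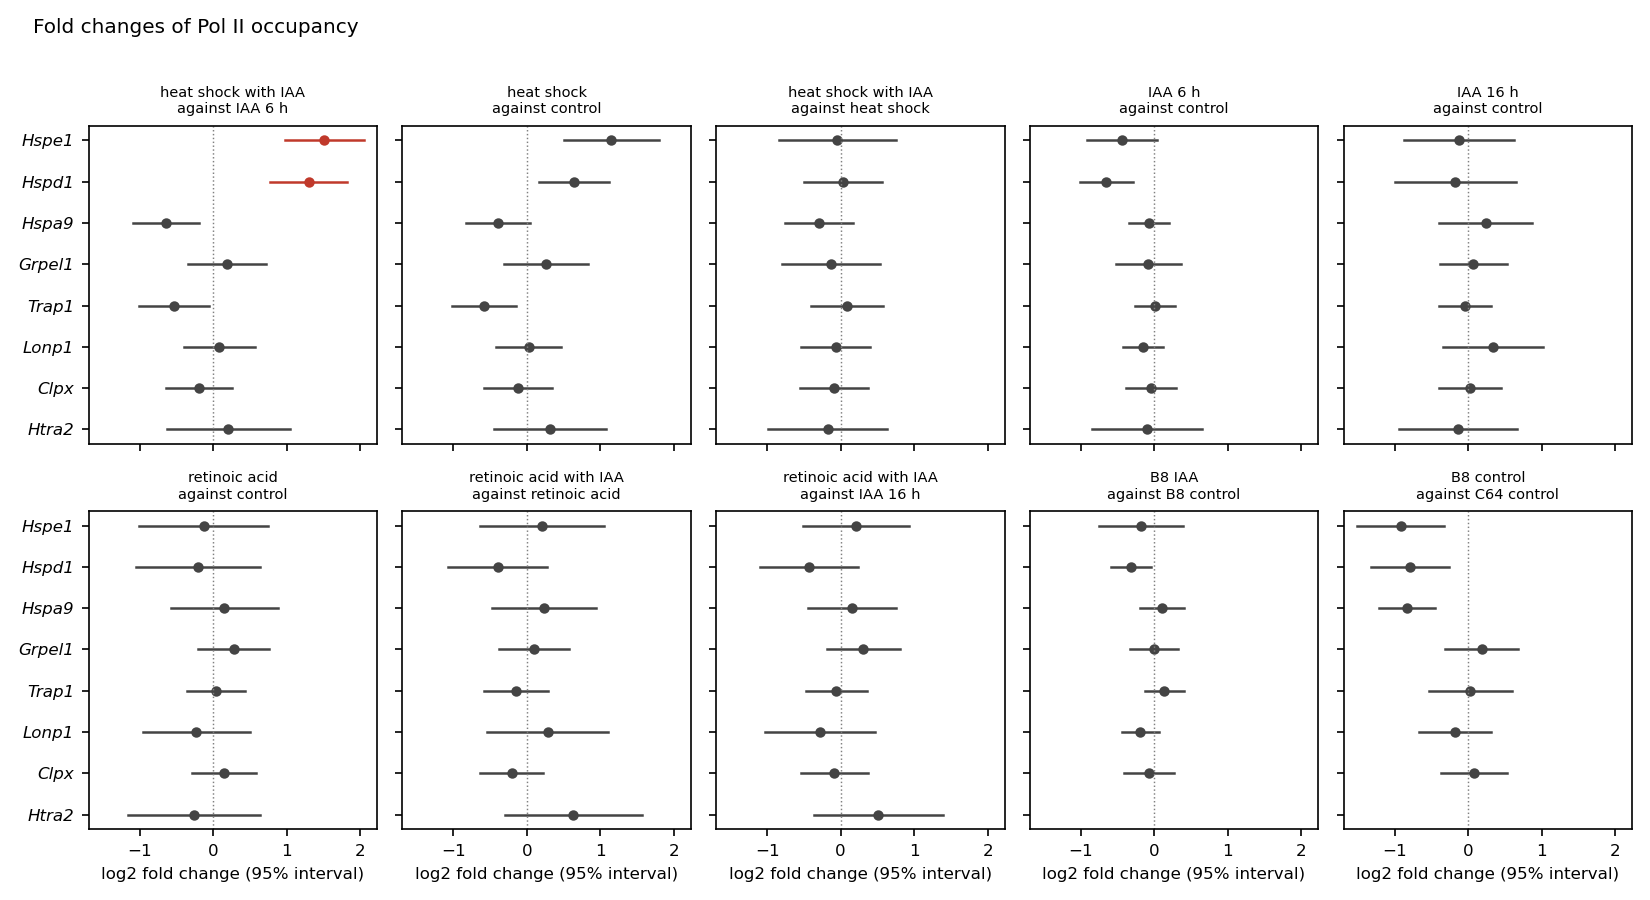
Log2 fold changes of Pol II occupancy for the 8 genes in the 10 comparisons between groups (x axis; bars are 95% intervals; no replicate block). Red marks an adjusted p under 0.05, which Hspe1 and Hspd1 reach with heat shock and IAA against IAA; Htra2 is missing where it did not pass the filter on low counts.

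Over the 8 C64 groups, Hspe1 and Hspd1 followed each other (r = 0.967 between group means of log2 CPM). As the groups of 1 run share a run and their controls, these values describe the 8 means only. The genes most like Hspe1 among 10249 with at least 20 CPM on average were Nol6, a nucleolar protein gene (r = 0.993), Cap1 (0.989) and Lman2l (0.989). Those most like Hspd1 were Cct8, a subunit of the cytosolic chaperonin TRiC (0.993), Cdk7, the kinase of TFIIH (0.993), and Dsg2 (0.987). Against Hspd1, Trap1 had r = -0.780 and Hspa9 -0.658, and Lonp1 0.752.

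Other genes of mitochondrial protein quality control were counted in the same tests. Of 18 further mitochondrial chaperones and proteases tested, 1 was called higher with heat shock and IAA against IAA and 0 lower (median log2 fold change -0.10, against 0.02 over all genes). It was Clpp, the protease partner of Clpx (1.32, SE 0.29, adjusted p = 0.0378). In heat shock against control 0 of the 18 were called. Over all genes tested, 1.40% were called with heat shock and IAA against IAA and 3.02% in heat shock against control. Of 15 mitochondrial import genes, 0 were higher and 2 lower with heat shock and IAA, namely Romo1 (-1.46, SE 0.25) and Dnajc15 (-1.21, SE 0.23), with a list median of -0.22, and 0 were called in heat shock against control. With the library set as a block, the import genes numbered 1 higher and 4 lower with IAA and 2 higher and 4 lower without, beside 9.76% and 8.41% of all genes. The cytosolic chaperonin TRiC, the structural relative of HSP60, was split: Cct3 rose (1.11, SE 0.25, and 1.09, SE 0.26) while Cct4 fell (-1.20, SE 0.23, and -1.25, SE 0.23) in both heat shock comparisons, and Cct5 fell in heat shock against control (-1.14, SE 0.23). Of 12 endoplasmic reticulum chaperones and 5 tested stress response regulators 0 were called in either heat shock comparison. With the library set as a block, 1 endoplasmic reticulum chaperone was higher in heat shock against control and 1 regulator lower in heat shock with IAA against IAA. Embryonic stem cell markers summed to 1828 to 2025 CPM in heat shock with IAA, against 1150 to 1164 CPM with IAA alone, and to 2279 to 2402 CPM in heat shock, against 1283 to 1518 CPM in control, and their part in the results was not tested. Esrrb and Tfcp2l1 carried 92.2 to 94.9% of these sums, and Tfcp2l1 was the marker called (log2 fold changes of 1.30, SE 0.29, and 1.41, SE 0.25). The other 6 summed to 120 to 122 CPM in heat shock with IAA, against 88.2 to 89.2 CPM with IAA alone, and to 122 to 126 CPM in heat shock, against 84.7 to 94.9 CPM in control. Of the 4 neural markers, Sox1, Neurod1 and Tubb3 were at 0, so the neural sums are those of Pax6. They were 79.6 to 130 CPM, against 62.9 to 66.4 CPM, and 71.5 to 123 CPM, against 56.3 to 64.4 CPM, in the same comparisons. The log2 fold changes of Pax6, 0.71 and 0.72, were not called. With the library set as a block Pax6 was called higher in both comparisons, beside 9.76% and 8.41% of genes. Its part in the results was not tested.

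The same lists were counted with IAA alone. In C64 at 6 h, 0 of the 18 mitochondrial and 0 of the 15 import genes passed, beside 0.0433% of all genes tested. With the library set as a block, 4 of 12 endoplasmic reticulum chaperones were lower and 0 higher, as were 2 of 6 inducible cytosolic chaperones. In that fit 1.19% of 16157 genes were called, 18 higher and 175 lower. At 16 h 0 genes of these lists passed without the block. With the replicate number as a block, 5 of 12 endoplasmic reticulum chaperones and 3 of 6 inducible cytosolic chaperones were lower and 0 higher. In that fit 2.16% of 16349 genes were called, 120 higher and 233 lower. With spike-in scaling and the same block, 0 of 16349 genes were called. In B8 with IAA, 5.35% of 13881 genes were called, 312 higher and 431 lower. Of the 18 mitochondrial genes 1 was higher and 1 lower. The higher one was Clpp, which had 35.7, 51.0, 37.6 and 33.9 CPM with IAA, against 12.3, 6.88, 9.26 and 14.2 CPM in control (log2 fold change 1.81, SE 0.24, adjusted p = 0.000282). All IAA libraries lay above all controls, and no other annotated gene shares its 5884 bases. Clpb, a disaggregase gene, fell (-0.64, SE 0.14, adjusted p = 0.0123), as did the import receptor gene Tomm20 (-0.65, SE 0.14, adjusted p = 0.0113). The cytosolic Hspa8, counted in the inducible list though constitutive, fell with IAA for 6 h in both lines. Its log2 fold change was -1.64 (SE 0.14) in B8 and -1.73 (SE 0.15) in C64.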

How the data were processed

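Gene counts of 24 Pol II CUT&Tag libraries were taken as the authors deposited them. Per the labels and the study's methods, the authors aligned reads to mm10 with Bowtie2, kept PCR duplicates, brought the libraries of a run to a common read number by subsampling and counted over whole genes with featureCounts. The headers of the B8 tables give version 2.0.0, paired-end mode, Ensembl 102 genes of GRCm38, no strand setting and no option to count fragments over several genes. The submitters' notes also name FastQC, deepTools and bedtools. The deposited normalization table holds other values, the genome and spike-in read numbers, and the deposited TATA and TATA-less lists hold gene names and transcripts. Columns present in several tables were identical (14 repeats, 0 different) and used once, and 0 count columns were left unused. B8 counts were restricted to the 27752 genes of the C64 tables.

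Differences were tested with edgeR 4.0.16 in R 4.3.3 (TMM scaling, genes kept by filterByExpr at minimum count 20, quasi-likelihood F test, Benjamini-Hochberg adjusted p under 0.05 over all genes tested), with each comparison fitted on its own groups and run as covariate for IAA in B8. The interactions were fitted over all groups concerned. Standard errors are Wald errors of the coefficients. DESeq2 1.42.0, the likelihood-ratio test of edgeR, RLE scaling, no scaling, no filter, joint fits, each library left out, blocks and spike-in scaling were run as alternatives. TMM removes any change shared by all genes. The fitting code was tested on simulated data.

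In run 3, residuals of same-numbered libraries correlated at 0.603 to 0.771 over all 6 pairs of groups, so the number pairs the libraries and blocked values are given. In run 2 the column-name sets correlated at 0.184 to 0.713 over 6 pairs, and blocks by set were added after the data were seen. In B8 the numbers did not pair the libraries. Blocked fits of a single comparison leave 1 residual degree of freedom, so the estimate of spread leans on the trend over genes.

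The members, gene lists, motifs and tests were chosen with earlier results of these data known. The genes named beyond the members were, per list and comparison, up to 3 with the smallest p among those past the threshold, of which a part is printed, and the 3 genes most correlated with Hspe1 and with Hspd1 over group means (prior count 2). Promoter windows came from RefSeq (GRCm38.p6).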

Additional observations from a re-analysis of the deposited data

Results flagged for a closer look

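Lonp1 in B8 cells treated with IAA had 144 CPM in library 2 of run 6, far from the other 3 libraries at 177 to 183 CPM, the gap being 0.853 of the whole range. Chance alone sets apart about 1 in 20 such groups, and 16 groups of 4 libraries, which each combine runs 6 and 8, were examined, of which 1 stood out in this way.

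The IAA effect on Clpp differed between the lines, by 2.04 on the log2 scale in B8 minus C64 (SE 0.38, adjusted p = 0.0317 by edgeR's quasi-likelihood test). Clpp had 35.7, 51.0, 37.6 and 33.9 CPM in B8 with IAA, against 12.3, 6.88, 9.26 and 14.2 CPM in B8 control, and 11.5 and 9.55 CPM in C64 with IAA, against 13.0 and 11.6 CPM in C64 control. The lines were measured in different runs.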

How the results depend on the processing

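Neither of the 2 called member values, Hspe1 and Hspd1 with heat shock and IAA against IAA, changed sign under any alternative. Over 11 alternatives the log2 fold change of Hspe1 ran from 1.20 to 1.76 (adjusted p from 7.81e-07 to 0.109) and that of Hspd1 from 1.09 to 1.55 (8.42e-06 to 0.582). Of the 100 uncalled values, 64 took the other sign under at least 1 alternative and 36 did not, and 125 of the 152 sign changes came from leaving out 1 library.

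Called members numbered 0 to 4 when 1 library at a time was left out for heat shock with IAA against IAA, 0 to 3 for heat shock against control, 0 to 1 for IAA in B8, and 0 elsewhere. The joint fit of run 2 called 1 (Hspd1) for heat shock with IAA, as Hspe1 had a log2 fold change of 1.53 and an adjusted p of 0.0758 there. The likelihood-ratio test called 1 (Hspe1) for heat shock against control, beside 792 of 16332 genes. Run 8 alone called 2 members for IAA in B8 (Hspd1 and Lonp1), beside 2753 of 13535 genes, and 2 for B8 against C64, beside 785 of 14989. Run 6 alone called 1 for B8 against C64, beside 535 of 15250 genes, and 0 for IAA in B8.

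With the replicate block by column-name set, the count was 2 for heat shock with IAA against IAA, 1 for heat shock against control and 1 for IAA for 6 h, and 0 in the other fits of run 2. With the replicate block in run 3 and B8 it was 0 in every fit, so the pairing changed no other call. Spike-in scaling, with or without the block, called 0 members in run 3. It was not run for run 2, whose columns could not be tied to rows of the table, or for B8, where 1 control library of run 6 had no row. In B8 of run 8, IAA gave 44.45 and 42.44 genome reads per spike-in read, against 64.46 and 67.99 in control. In run 6, IAA gave 86.54 and 87.22, against 59.19 in control library 2. The part of these numbers in the B8 results was not tested.

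When 1 library is left out, an arm with a lone library is assumed to vary like the others. Precision is limited by 2 libraries per group and, for Htra2 and for Hspe1 in B8, by few counts.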
